A study of Macaca mulatta with 24 samples.

Results

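The immediate early response genes examined here were a list of 10 genes, FOS, FOSB, JUN, JUNB, EGR1, EGR2, ATF3, IER2, DUSP1 and NR4A1, measured by RNA-seq in visceral (omental) white adipose tissue (WAT). A member was the row of the raw count table whose Ensembl identifier carried the symbol in a gene name table, or otherwise in the study's supplementary tables. This rule found 6 of the 10 members among 32386 genes: FOS (ENSMMUG00000040100), FOSB (ENSMMUG00000014430), JUNB (ENSMMUG00000005688), EGR2 (ENSMMUG00000010256), ATF3 (ENSMMUG00000012185) and NR4A1 (ENSMMUG00000022922). All 6 passed the filter on low counts, which kept 15207 genes. JUN, EGR1, IER2 and DUSP1 were not analysed here, so statements on the members cover those 6 genes.

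The 24 female rhesus macaques formed 4 groups of 6, with 1 library per animal. The controls (*C*) carried cholesterol implants and ate monkey chow, the *T* group carried testosterone implants and ate chow, the *WSD* group carried the control implants and ate a high-fat Western-style diet, and the *T* + *WSD* group received both treatments, in each case for 3 years. The labels give every animal an age of 4 years, whereas the study's methods give an older age at biopsy, and age was not used. The methods also state that the animals were picked as representative of their groups in fat mass and insulin, so they were not a random sample of treated animals. The comparisons asked whether testosterone, the diet and their combination changed gene expression in this depot, and whether the effect of testosterone depended on diet (the interaction).

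Immediate early genes are transcribed within minutes of a stimulus, before any new protein is made, when kinases activate factors such as SRF, the ELK proteins and CREB that already sit at their promoters. Their mRNAs decay quickly, so that levels in a tissue sample can differ widely between individuals. In adipose tissue they respond to growth factors, adrenergic signals and cell stress, and also to the handling of tissue.

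The libraries held 6899185 to 28270776 counts each (median 20630512.5). In 8 libraries, 2 in each group, the gene ENSMMUG00000038258 took 9.92% to 54.7% of all counts, against 0.879% to 2.51% in the other 16. These 8 were handled as a library batch, and without that gene they held 3125930 to 15799235 counts. Levels are given as CPM, counts scaled to the TMM-normalized library size, a scale on which 1 gene can be compared between animals but different genes cannot be compared with each other, since gene lengths were not used. Adipocyte markers were present as the tissue label requires: 8 of 9 listed genes were measured and none was at 0. PLIN1 made up the largest part of their summed CPM over the 24 animals (LIPE in *T*). Their summed level was between 1355 and 9079 CPM in every animal. FABP4 was at only 0.937 to 3.26 CPM, so it adds little to that sum. The lowest sum was that of *C* 1, where LEP was at 4.39 CPM and the sum of mesothelial markers, described below, was 5318 CPM.

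FOS, FOSB and JUNB encode subunits of AP-1, a transcription factor built as a dimer of FOS and JUN family proteins. FOS was at 17.9 CPM in the lowest *C* animal, 26.4 at the median and 45.3 in the highest, and in *T* at 10.8, 26.2 and 65.3. In *WSD* the lowest, median and highest FOS levels were 8.02, 28.9 and 64.1 CPM, and in *T* + *WSD* they were 14.1, 18.5 and 34.5. The medians of *C*, *T* and *WSD* were close together, *T* 16 and *WSD* 22 held the highest values, *WSD* 21 held the lowest, and all 4 groups overlapped.

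FOSB, a FOS paralog, was measured on few reads, from 8 counts in *C* 1 (95% Poisson interval 3.45 to 15.8, counting error only) to 217 in *T* 16. Its lowest, median and highest levels were 0.450, 1.24 and 3.599 CPM in *C* and 0.898, 4.09 and 7.88 CPM in *T*. They were 0.529, 2.59 and 5.56 CPM in *WSD* and 0.632, 1.13 and 3.96 CPM in *T* + *WSD*. Animals *T* 16, *T* 15 and *T* 17 were the 3 highest of all 24, while *T* 14 lay below the *C* median, and the groups overlapped.

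JUNB is an AP-1 subunit that can restrain the activity of JUN. Its lowest, median and highest levels were 25.4, 27.4 and 42.6 CPM in *C* and 15.7, 24.1 and 61.1 CPM in *T*. They were 12.1, 29.8 and 101.6 CPM in *WSD* and 14.5, 18.6 and 23.6 CPM in *T* + *WSD*. All 6 *T* + *WSD* animals lay below all 6 controls, the one case among these genes in which a treated group did not overlap *C*. Within *WSD* the animals split widely, with 20 and 22 above every animal of the other groups and 21 and 24 below every animal of the other groups.

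ATF3, a stress-induced factor of the ATF/CREB family that can pair with JUN proteins, had its lowest, median and highest levels at 6.95, 13.8 and 16.8 CPM in *C* and 5.03, 10.7 and 27.1 CPM in *T*. They were 2.53, 8.64 and 39.8 CPM in *WSD* and 4.62, 7.13 and 18.4 CPM in *T* + *WSD*. The 3 treated medians lay below the *C* median, but *WSD* 20, *T* 16 and *WSD* 22 were the highest of all animals, so the groups overlapped.

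EGR2 is a zinc-finger factor also known for an early role in fat cell differentiation. Its lowest, median and highest levels were 0.956, 2.95 and 5.88 CPM in *C* and 1.59, 2.52 and 7.03 CPM in *T*. They were 1.497, 8.77 and 15.6 CPM in *WSD* and 1.70, 4.24 and 7.05 CPM in *T* + *WSD*. Animals 20, 22 and 23 of *WSD* exceeded every animal of the other groups, whereas *WSD* 21 and 24 lay below the *C* median. The lowest count was 6, in *T* + *WSD* 8 (95% Poisson interval 2.20 to 13.1).

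NR4A1 encodes an orphan nuclear receptor induced by adrenergic signals in adipose tissue. Its lowest, median and highest levels were 9.94, 13.5 and 19.5 CPM in *C* and 6.20, 21.7 and 118.2 CPM in *T*. They were 4.24, 17.9 and 89.4 CPM in *WSD* and 7.30, 11.04 and 35.4 CPM in *T* + *WSD*. *T* 16, *WSD* 20 and *WSD* 22 stood far above all others, *WSD* 21 was the lowest, and the highest level was 27.9 times the lowest.

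**Figure D1:**
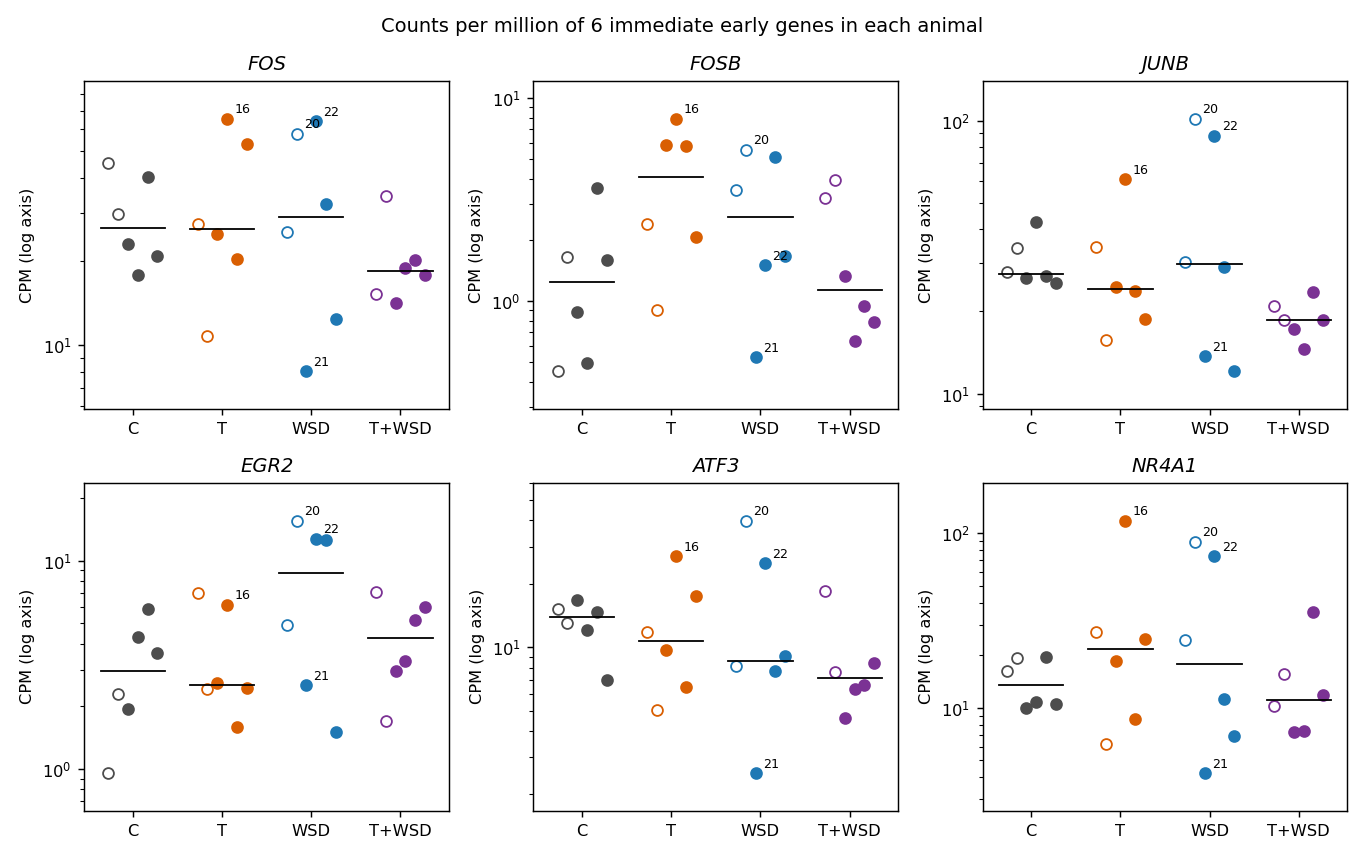
Level of each of the 6 members in each of the 24 animals, with groups on the x axis, CPM on a log y axis, bars at the group medians and open symbols for the 8 libraries of the library batch; numbers name *T* 16 and *WSD* 20, 21 and 22. JUNB is the one gene whose *T* + *WSD* animals, at 14.5 to 23.6 CPM, all lie under the controls, at 25.4 to 42.6 CPM.

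The order of the group means differed from gene to gene. *WSD* had the highest mean for JUNB (45.9 ± 39.0 CPM, SD, n = 6), EGR2, ATF3 and NR4A1, and *T* had it for FOS (33.7 ± 20.96 CPM, SD, n = 6) and FOSB. *T* + *WSD* had the lowest mean for FOS, JUNB and ATF3, and *C* for FOSB, EGR2 and NR4A1. Of the 18 pairs of neighbouring means in these orders, 18 differed by less than the larger SD of the pair. Neighbouring means are the closest ones by construction, so this count says little. It does not cover means farther apart, such as those of JUNB in *C* and *T* + *WSD*.

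The same few animals were high or low for most members. When each gene was standardized over the 24 animals, the mean z-score of the 6 members was 1.90 in *WSD* 20, 1.58 in *T* 16 and 1.42 in *WSD* 22, each of which was among the 3 highest animals for 5 of the 6 genes. At the other end it was -1.50 in *WSD* 21, which was among the 3 lowest for 5 genes, -1.03 in *T* 14 and -0.89 in *WSD* 24. The 6 controls lay between -0.30 and 0.50 and the 6 *T* + *WSD* animals between -0.80 and 0.09, so the wide ranges belonged to *T* (-1.03 to 1.58) and *WSD* (-1.50 to 1.90). Of the 3 high animals, *WSD* 20 was in the library batch and the others were not. Averaged over groups, the 2 batch libraries exceeded the other 4 by 0.18 (FOS), 0.28 (FOSB), 0.25 (JUNB), 0.37 (ATF3) and 0.37 (NR4A1) in mean log2 CPM, with EGR2 at -0.04, and the sign of this difference changed from group to group for each of the 6.

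**Figure D2:**
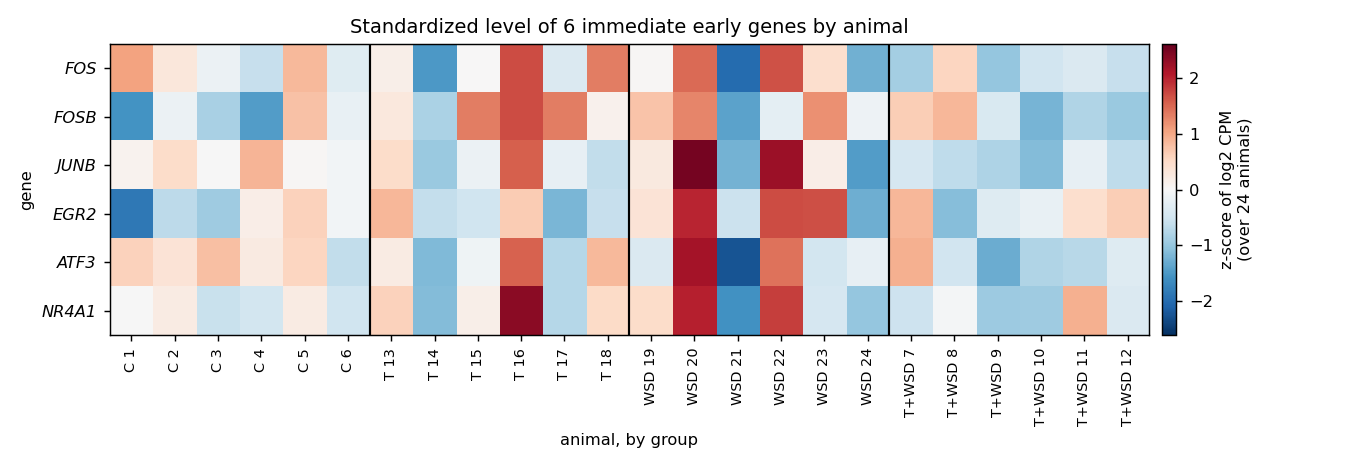
Standardized level (z-score of log2 CPM over 24 animals, colour) of the 6 members (y axis) in each animal (x axis, groups parted by lines). *T* 16, *WSD* 20 and *WSD* 22 are red for nearly all genes, with mean z-scores of 1.58, 1.90 and 1.42, and *WSD* 21 is blue, with a mean of -1.50.

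The spread between animals of the same group was above that of most genes. The median of the 4 within-group SDs of log2 CPM was 1.17 for NR4A1, 1.10 for FOSB, 0.86 for EGR2, 0.78 for ATF3, 0.74 for FOS and 0.49 for JUNB, against a median of 0.30 over all tested genes. These values lay at the 95.7, 94.7, 89.95, 87.3, 85.9 and 71.6 percentiles of all tested genes. By group, the median SD of the 6 members was 0.49 for *C* (0.34 over all tested genes), 0.92 for *T* (0.29), 1.33 for *WSD* (0.33) and 0.70 for *T* + *WSD* (0.22). All 6 members had their largest SD in *WSD*, as did 33.0% of all tested genes. The difference in spread between groups was not tested.

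**Figure D3:**
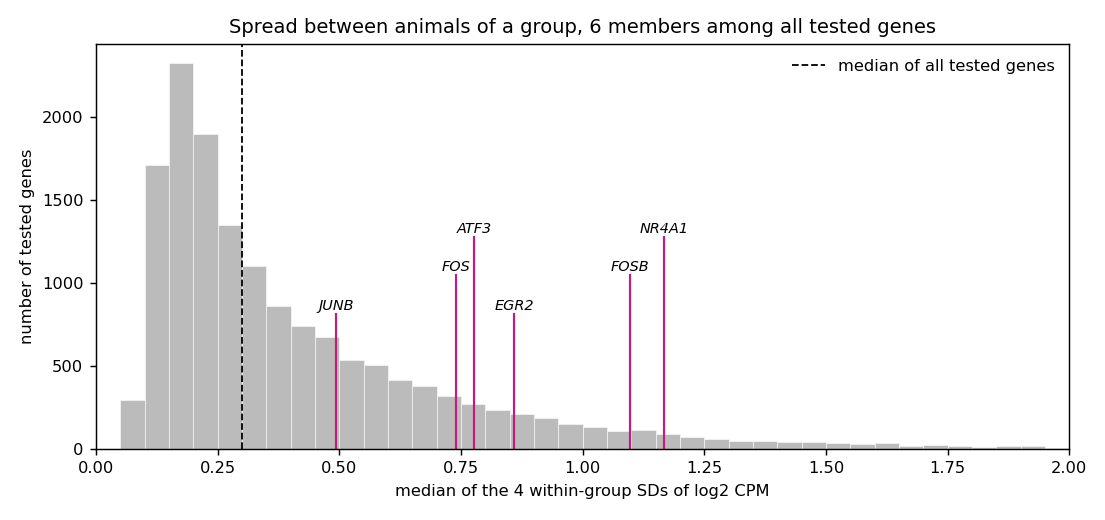
Number of tested genes (y axis) by the median of their 4 within-group SDs of log2 CPM (x axis), with the 6 members marked and a dashed line at the median of all tested genes, 0.30. The members lie to the right of that line, from JUNB at 0.49 to NR4A1 at 1.17.

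In *T* + *WSD* against *C*, the lower JUNB level was the clearest pattern among the members, but no member was a DEG (adjusted p under 0.05 and fold change over 1.5). edgeR called 0 of 6 members, where 10% of all tested genes were called; 0 members had an unadjusted p under 0.05, against 32.1% of all tested genes, and DESeq2 also called 0, where it called 1894 genes in all. The p-values of these tests reflect the spread between animals. The log2 fold change of JUNB was -0.69 (SE 0.42, edgeR adjusted p = 0.269), with 6 of 6 *T* + *WSD* animals under every control. Such a gap between the groups was found for 1 of 6 members and for 7.61% of all tested genes. FOS was at -0.57 (SE 0.45, edgeR adjusted p = 0.401) and ATF3 at -0.61 (SE 0.51, edgeR adjusted p = 0.429), while FOSB, EGR2 and NR4A1 had log2 fold changes of 0.18, 0.47 and 0.03. With each animal left out these ran from -0.13 (without *T* + *WSD* 7) to 0.73 (without *C* 5) for FOSB, from 0.30 to 0.74 (the same animals) for EGR2 and from -0.49 (without *T* + *WSD* 11) to 0.18 (without *T* + *WSD* 9) for NR4A1, and in the 16 libraries outside the batch FOSB was at -0.81. The median over the members was -0.27, and over all tested genes -0.04. When only *C* and *T* + *WSD* were fitted, so that the spread within *WSD* and *T* did not enter, JUNB was called lower (log2 fold change -0.69, edgeR adjusted p = 0.0138), 1 of 6 members beside 9.65% of the genes tested in that fit; over 32 alternatives its adjusted p ran from 0.0138 to 0.482, and a further fit, with a mesothelial covariate that cannot be told apart from the group, gave 0.998. In bulk tissue, fewer cells of a type and less RNA per cell cannot be told apart.

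In *WSD* against *C*, all 6 members had positive log2 fold changes, and none passed the test. edgeR called 0 of 6, as it called 0% of all tested genes, and DESeq2 called 0 of 6, where it called 238 genes in all; 1 member and 18.5% of all tested genes had an unadjusted p under 0.05. That member was EGR2, with a log2 fold change of 1.37 (SE 0.53, edgeR adjusted p = 0.184). NR4A1 followed at 1.28 (SE 0.71, edgeR adjusted p = 0.329) and FOSB at 1.02 (SE 0.63, edgeR adjusted p = 0.385). FOS at 0.17 and ATF3 at 0.21 were small and fell below 0 without *WSD* 20, at -0.05 and -0.31. NR4A1 was at 0.76 and JUNB at 0.19 (0.58 with all animals) without the same animal. The median over the members was 0.80, against -0.02 over all tested genes. The groups overlapped for 6 of 6 members, so the count without overlap was 0, and 0.401% of all tested genes had none.

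In *T* against *C*, FOSB and NR4A1 had the largest estimates. edgeR called 0 of 6 members and 0% of all tested genes, and DESeq2 called 0 of 6 members and 7 genes in all; 1 member and 8.63% of all tested genes had an unadjusted p under 0.05. FOSB had a log2 fold change of 1.53 (SE 0.62, edgeR adjusted p = 0.547) and NR4A1 of 1.25 (SE 0.70, edgeR adjusted p = 0.615). The NR4A1 estimate was 0.26 without *T* 16. The other 4 members lay between -0.04 and 0.21, the median was 0.20, and the median of all tested genes was -0.02. No member was free of overlap (0 of 6), against 0.263% of all tested genes.

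In *T* + *WSD* against *WSD*, which asks for the effect of testosterone in animals on the diet, all 6 members had negative log2 fold changes. edgeR called 0 of 6 members and 0.815% of all tested genes; 1 member and 20% of all tested genes had an unadjusted p under 0.05. That member, JUNB, had a log2 fold change of -1.27 (SE 0.43, edgeR adjusted p = 0.102). DESeq2 called JUNB (log2 fold change -1.26, DESeq2 adjusted p = 0.0492), 1 of 6 members beside 2.62% of the genes it tested. Without *WSD* 21, the animal with the lowest members, edgeR called JUNB too (log2 fold change -1.46, edgeR adjusted p = 0.0413), beside 2.92% of the genes tested, and its adjusted p ran from 0.0413 to 0.497 over 33 alternatives. NR4A1 was at -1.25 (SE 0.71, edgeR adjusted p = 0.331), and FOS, FOSB, EGR2 and ATF3 lay between -0.90 and -0.74. Without *WSD* 20, JUNB was at -0.88, NR4A1 at -0.73 and ATF3 at -0.30, and without *WSD* 22 FOS was at -0.44. The median was -0.87, against -0.03 over all tested genes. The groups overlapped for each member (0 of 6 without overlap, against 2.84% of all tested genes): the *T* + *WSD* animals lay within the wide range of *WSD* for JUNB.

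In *T* + *WSD* against *T*, edgeR and DESeq2 each called 0 of 6 members, where edgeR called 3.77% of all tested genes and DESeq2 1090 genes. 1 member and 25.9% of all tested genes had an unadjusted p under 0.05. This was FOSB, with a log2 fold change of -1.36 (SE 0.64, edgeR adjusted p = 0.181). Estimates were negative for 5 members and 0.27 for EGR2 (0.0936 without *T* + *WSD* 7, 0.54 without *T* 13), and without *T* 16 they were -0.23 for NR4A1, -0.31 for JUNB, -0.25 for ATF3 and -0.47 for FOS. The median over the members was -0.71, against -0.03 over all tested genes. The groups overlapped for each member (0 of 6 without overlap, against 6.10% of all tested genes).

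The interaction asks whether the effect of testosterone under the diet differed from its effect under chow. Its estimate was negative for all 6 members, with a median of -1.17 on the log2 scale against -0.02 over all tested genes. At the adjusted p under 0.1 used for this term, edgeR called 0 of 6 members and 0.809% of all tested genes, and DESeq2 called 0 members and 483 genes in all; 3 members and 13.5% of all tested genes had an unadjusted p under 0.05. These were NR4A1 at -2.50 (SE 0.997, edgeR adjusted p = 0.269), FOSB at -2.37 (SE 0.89, edgeR adjusted p = 0.234) and JUNB at -1.23 (SE 0.59, edgeR adjusted p = 0.370). NR4A1 was at -1.51 without *T* 16, and JUNB at -0.84 and ATF3 at -0.29 without *WSD* 20. The comparisons share animals, so the signs of 1 comparison are not independent of those of another: a high *WSD* group gives both a positive *WSD* against *C* and a negative *T* + *WSD* against *WSD*. Within a comparison the members vary together between animals, as described below. Their signs, and the 3 of 6 members above, are therefore not separate observations either. In the 16 libraries outside the library batch, and with the batch as a covariate, 0 of 6 members were called in each of the 6 comparisons. The fit to the 16 libraries called 0.505% of the genes it tested in *T* + *WSD* against *C*, 1.99% against *T* and 0% or close to it in the other 4, so its counts of 0 say little, and the fit with the batch covariate called 9.86% in *T* + *WSD* against *C*; the 8 libraries of the batch were not fitted alone.

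**Figure D4:**
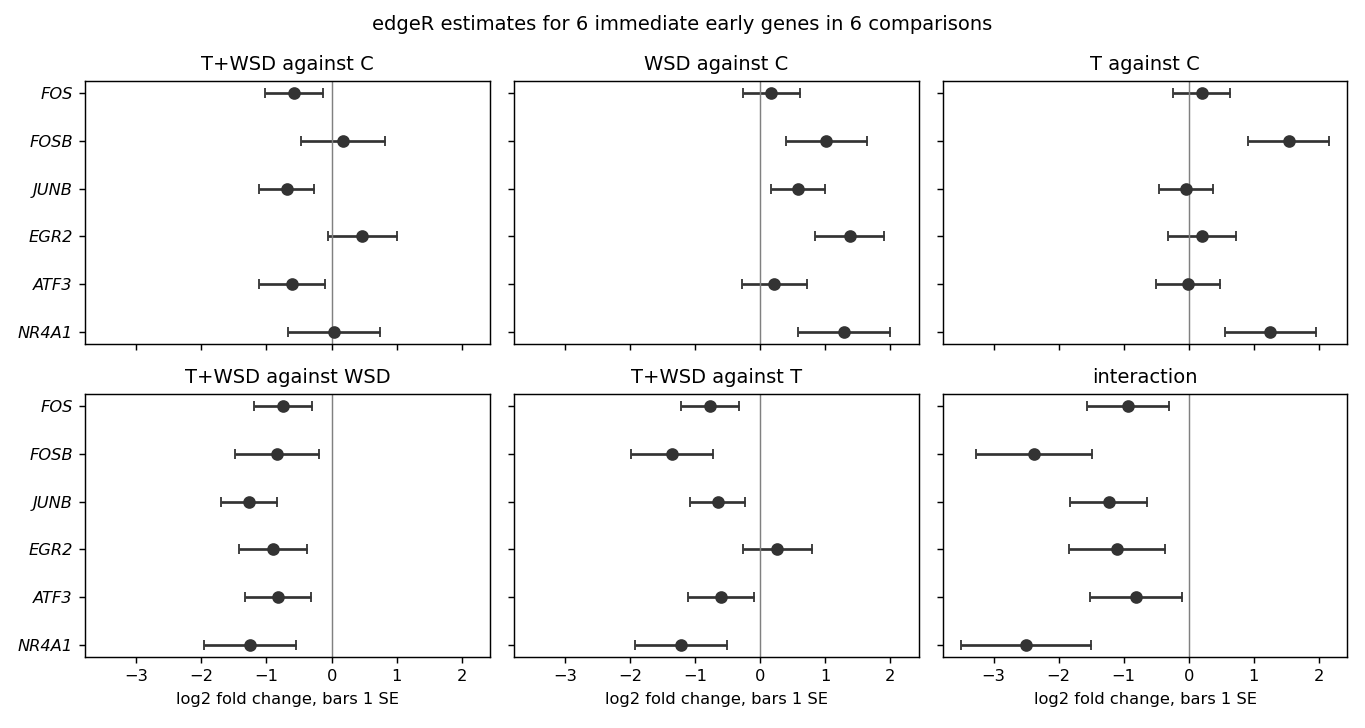
edgeR log2 fold change of each member (points, bars 1 SE) in the 6 comparisons, with a line at 0. Estimates are positive for all 6 in *WSD* against *C* and negative for all 6 in *T* + *WSD* against *WSD* and in the interaction, and 0 of 6 pass the threshold in any panel.

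The members varied together between animals. Over the 24 animals, the 15 pairs of the 6 members had Pearson correlations of log2 CPM from 0.34 to 0.84 (median 0.55) and Spearman correlations from 0.26 to 0.83 (median 0.50). After Benjamini-Hochberg adjustment over the 15 pairs, 10 Pearson and 9 Spearman correlations had an adjusted p under 0.05 (permutation test, two-sided, 100000 resamples). The closest pair was FOS and NR4A1 (r = 0.84, permutation p = 1e-05, the smallest these resamples can give, adjusted p = 5e-05; rho = 0.83, p = 1e-05, adjusted p = 0.00015), followed by JUNB and NR4A1 at r = 0.83 and FOS and ATF3 at r = 0.79. FOSB correlated least with the others, with r from 0.34 to 0.47.

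Leaving out extreme animals tends to lower a correlation, though not for every pair (FOSB and EGR2 went from r = 0.34 to 0.37). The values without them are given as a description. Without the 2 animals farthest from the median of the first gene of each pair, the median r was 0.37 and 6 of the 15 pairs had an adjusted p under 0.05 (permutation test), with FOS and NR4A1 at r = 0.79. Centred on the group means, so that differences between groups did not enter, the 15 pairs had r from 0.35 to 0.87 (median 0.58), and 13 had an adjusted p under 0.05 (permutation test), with a median of 0.47 and 9 such pairs without the 2 farthest animals. Within the 16 libraries outside the library batch, r was 0.12 to 0.86 (median 0.56) with 10 such pairs, and without the 2 farthest animals the median was 0.43 with 2 such pairs. Within the 8 libraries of the batch it was 0.06 to 0.95 (median 0.62) with 1 such pair (exact permutation test). Without the 2 farthest libraries, r there ran from -0.85 (FOS and EGR2) to 0.77 (median 0.29), with 0 such pairs.

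The genes whose pattern over the 24 animals was most like the mean z-score of the members were, among 12619 other tested genes with a symbol, ZFP36 (r = 0.94), ZNF672 (0.87), CSRNP1 (0.87), KLF4 (0.85), ZBTB21 (0.83), MAFF (0.83), ADAMTS1 (0.82), TRIB1 (0.82), ERF (0.82) and PLK3 (0.81). This ranking is a description and carries no test. Spearman's rho for these 10 lay between 0.65 (ADAMTS1) and 0.86 (ZFP36). Without *WSD* 20 and *T* 16, the animals farthest from the median, r was 0.91 for ZFP36 and at least 0.71 for the others. ZFP36 encodes a protein that binds AU-rich elements and speeds the decay of mRNAs, and it was at 17.3 CPM in the lowest and 109.6 CPM in the highest *WSD* animal. Of 35 further early response genes that were listed and measured, 25 were in the top 5% of this ranking, with a median r of 0.64, beside 3 of 22 upstream signalling genes (median r 0.04), 2 of 7 heat shock genes (0.32), 2 of 8 smooth muscle and pericyte genes (-0.02), 0 of 7 neutrophil genes (0.30) and a median r of -0.01 over all ranked genes.

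JUND and FOSL2 are further AP-1 subunits, of which JUND is expressed steadily in many tissues. JUND had its lowest, median and highest levels at 54.8, 70.3 and 96.7 CPM in *C* and at 48.2, 80.8 and 93.1 CPM in *T*. For the *WSD* animals these were 30.6, 66.2 and 91.6 CPM, and for *T* + *WSD* 38.8, 43.6 and 60.5 CPM. The *T* + *WSD* animals sat low and close together, but the highest of them exceeded the lowest control. JUND fell in *T* + *WSD* against *C* (log2 fold change -0.71, SE 0.22, edgeR adjusted p = 0.0310) and against *T* (-0.76, SE 0.22, edgeR adjusted p = 0.0444). Its estimate was -0.51 (SE 0.22, edgeR adjusted p = 0.198) in *T* + *WSD* against *WSD*. These calls were close to the threshold: in the 16 libraries outside the batch the log2 fold change against *C* was -0.77 and the edgeR adjusted p 0.117, and leaving out any one of *C* 1, 2 and 5 or *T* + *WSD* 8, 9, 10, 11 and 12 also removed the call against *C*. The call against *T* was lost without any one of *T* 13, 15, 16, 17 and 18 or *T* + *WSD* 8, 9, 10, 11 and 12. Over 32 alternatives the adjusted p of JUND against *C* ran from 0.0140 to 0.117, and the fit with the mesothelial covariate gave 0.998.

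FOSL2 had its lowest, median and highest levels at 85.2, 127.9 and 239.9 CPM in *C* and at 54.2, 122.1 and 172.8 CPM in *T*. For the *WSD* animals these were 47.8, 122.4 and 532.0 CPM, and for *T* + *WSD* 51.1, 66.8 and 122.8 CPM. *WSD* 20 was the highest and *WSD* 21 the lowest of all animals, as for ATF3. The log2 fold change of FOSL2 was -1.06 (SE 0.45, edgeR adjusted p = 0.104) in *T* + *WSD* against *C* and -1.45 (SE 0.45, edgeR adjusted p = 0.0833) against *WSD*. FOSL2 was a DEG in neither by edgeR, and DESeq2 called the second. That second estimate includes *WSD* 20, at 532.0 CPM against 281.9 CPM in *WSD* 22, the next highest. Its value without *WSD* 20 is not given here.

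The wider early response list held 50 genes, of which 35 were measured and tested. In *T* + *WSD* against *C*, 7 of the 35 fell and 0 rose, beside 5.29% of all tested genes that fell, and the list's median log2 fold change was -0.38. Among the called genes, the largest decreases were those of ARC, a synaptic plasticity gene that is also a classic activity marker (log2 fold change -3.13, SE 0.69, edgeR adjusted p = 0.00616), CEBPD, a factor of early adipogenesis (-1.34, SE 0.44, edgeR adjusted p = 0.0390), and MYC, a growth regulator (-1.31, SE 0.33, edgeR adjusted p = 0.0126). ID2 (-1.21, SE 0.30, edgeR adjusted p = 0.0118) and ID1 (-1.07, SE 0.31, edgeR adjusted p = 0.0209), inhibitors of basic helix-loop-helix factors, came next among them. Not all of these genes followed the members. The r with the members' mean z-score was 0.66 for MYC, 0.64 for CEBPD and 0.48 for ID1, but 0.25 for ARC and -0.05 for ID2. JUND, also called, was at 0.71. Within *C*, CEBPD, MYC, ID1 and ID2 were highest in *C* 1, ARC in *C* 4 and JUND in *C* 5.

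ARC was at 1.10, 7.29 and 26.7 CPM in the lowest, median and highest *C* animal and at 0.565, 0.892 and 1.76 CPM in *T* + *WSD*. The level of *C* 6, the lowest control, was inside the range of *T* + *WSD*. MYC was at 61.6, 86.2 and 165.8 CPM in *C* and at 29.1, 35.8 and 52.7 CPM in *T* + *WSD*, without overlap. CEBPD was no longer called without any one of *C* 1, 3 and 4 or *T* + *WSD* 7, 8, 9, 10 and 12, nor ID1 without *C* 1, *C* 3 or *T* + *WSD* 9, whereas ARC, MYC and ID2 were called whichever animal was left out. The count of 7 was 4 without *C* 1 and 4 without *T* + *WSD* 9, fits that called 5.87% and 8.21% of the genes they tested. With the library batch left out (16 libraries) it was 0 where 0.505% of the genes tested were called, with log2 fold changes of -2.97 for ARC, -1.04 for MYC, -0.97 for ID2, -0.98 for ID1 and -1.03 for CEBPD.

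edgeR called 0 of the 35 in *T* + *WSD* against *WSD*, while 14 had an unadjusted p under 0.05 and DESeq2 called 5; over all tested genes these shares were 0.815%, 20% and 2.62%. The estimates of 33 were negative, with a median of -0.56. The smallest p-values were those of SOCS3, an inhibitor of cytokine signalling that was mapped through the study's supplementary tables (log2 fold change -1.82, SE 0.52, edgeR adjusted p = 0.0680), MYC (-1.12, SE 0.33, edgeR adjusted p = 0.0737) and FOSL2. Among the *WSD* animals each was highest in *WSD* 20, at 72.9 (SOCS3), 147.4 (MYC) and 532.0 CPM (FOSL2), against *WSD* medians of 13.45, 73.64 and 122.4 CPM. Without *WSD* 21, edgeR called 7 of the 35 and 2.92% of the genes it tested.

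Against *T*, 2 of the 35 fell in *T* + *WSD*, ARC (log2 fold change -2.83, SE 0.68, edgeR adjusted p = 0.0210) and JUND, beside 1.43% of all tested genes that fell. The count was 0 without *T* 18, where 2.18% of the genes tested were called. In *WSD* against *C*, edgeR and DESeq2 called 0 of 35 and 6 had an unadjusted p under 0.05 (18.5% of all tested genes), led by ID2 (-0.88, SE 0.30), TNFAIP3 (1.08, SE 0.37) and FOSL1 (2.07, SE 0.80), with edgeR adjusted p-values of 0.162, 0.162 and 0.187. TNFAIP3 and FOSL1 were at 83.9 and 3.12 CPM in *WSD* 20, against *WSD* medians of 18.4 and 0.59 CPM. Their estimates without that animal are not given here. In *T* against *C*, both tools called 0 and 2 had an unadjusted p under 0.05 (8.63% of all tested genes), and the smallest p-values were those of FOSL1 (1.74, SE 0.79), GADD45B (-0.72, SE 0.33) and ID2 (-0.60, SE 0.30), with edgeR adjusted p-values of 0.568, 0.570 and 0.584. For the interaction, edgeR called 0 (0.809% of all tested genes) and DESeq2 called 1 (3.02% of the genes it tested). An unadjusted p under 0.05 was found for 4 (13.5% of all tested genes). They were led by FOSL1 (-3.56, SE 1.12), an AP-1 subunit at under 4 CPM in every animal, CSRNP1 (-1.90, SE 0.67) and TRIB1 (-0.87, SE 0.31), with edgeR adjusted p-values of 0.166, 0.214 and 0.219. CSRNP1 was also highest in *WSD* 20, at 63.6 CPM against a *WSD* median of 11.4 CPM.

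**Figure D5:**
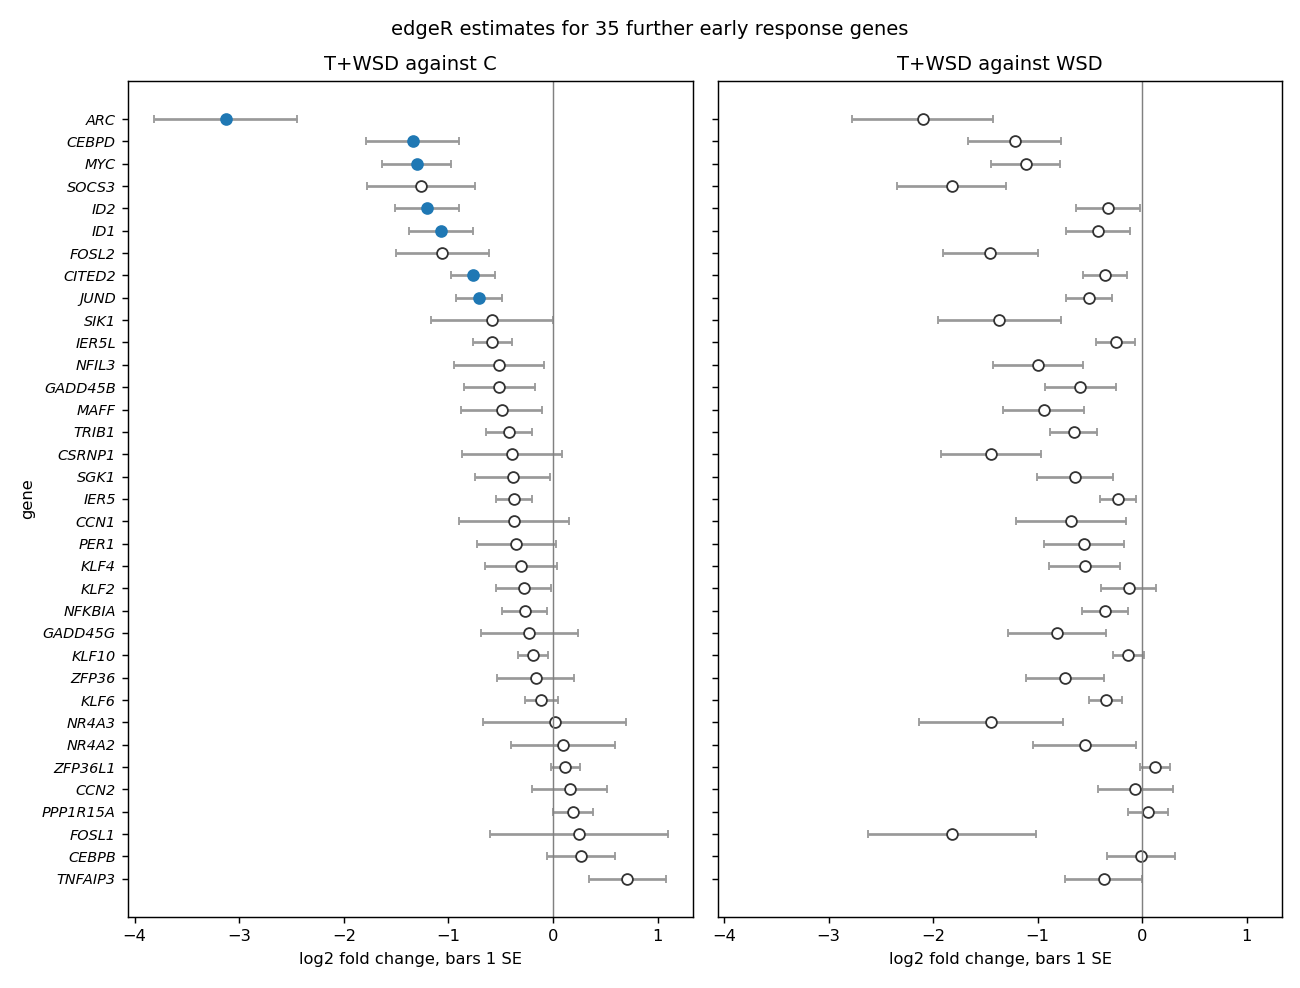
edgeR log2 fold change (x axis, bars 1 SE) of the 35 further early response genes (y axis) in *T* + *WSD* against *C* and against *WSD*, with filled points for DEGs. On the left 7 genes are filled, all lower, with ARC at -3.13; on the right 33 of 35 points lie below 0 and none is filled.

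The upstream signalling list, kinases and factors that switch on early genes, had 22 of 23 genes tested. Of these, 2 rose and 1 fell in *T* + *WSD* against *C*, 3 of 22 beside 10% of all tested genes, which is near the background. MRTFB, a coactivator of SRF, was higher (log2 fold change 0.90, SE 0.19, edgeR adjusted p = 0.00586), as was CRTC3, a coactivator of CREB (0.70, SE 0.17, edgeR adjusted p = 0.0103), and RPS6KA1, an RSK kinase, was lower (-0.78, SE 0.25, edgeR adjusted p = 0.0375). MRTFB was at 21.2, 44.2 and 58.5 CPM in the lowest, median and highest *C* animal and at 69.6, 78.9 and 97.0 CPM in *T* + *WSD*, without overlap. It was also the 1 gene of the list called in *T* + *WSD* against *T* (0.68, SE 0.19, edgeR adjusted p = 0.0412), a call lost without any one of *T* 13, 15, 16 and 18 or *T* + *WSD* 7 to 12. Against *C*, RPS6KA1 was no longer called without any one of *C* 1, 2, 4 and 6 or *T* + *WSD* 8, 9, 10 and 11, MRTFB and CRTC3 were called whichever animal was left out, and in the 16 libraries outside the batch, where 0.505% of the genes tested were called, 0 of the 22 were, with log2 fold changes of 0.67 for MRTFB, 0.61 for CRTC3 and -0.48 for RPS6KA1. The list's median log2 fold change against *C* was 0.05.

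In the other 4 comparisons edgeR called 0 of these 22 genes. The counts at an unadjusted p under 0.05 were 4 for *WSD* against *C* (18.5% of all tested genes), 1 for *T* against *C* (8.63%), 6 for *T* + *WSD* against *WSD* (20%) and 3 for the interaction (13.5%), near or below the background for the first 2 and the last. DESeq2 called 0, 0, 1 and 0, the 1 beside 2.62% of the genes it tested. Among the smallest p-values in *WSD* against *C* were those of the kinases MAPK9 (0.26) and RPS6KA1 (-0.72), on the log2 scale. In *T* against *C* they were those of RPS6KA1 (-0.66), MAPKAPK2 (0.32) and CRTC1 (0.28), and in *T* + *WSD* against *WSD* those of ELK1 (-0.42), MRTFB (0.63) and CRTC1 (0.47). For the interaction they included those of MAPKAPK2 (-0.60) and ELK1 (-0.38).

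Heat shock genes encode chaperones, many of which rise with protein damage, and 7 of 11 were tested. HSPA1A, HSPA1B, HSPB1 and HSP90AA1 were not matched, so the counts here do not cover them. edgeR and DESeq2 called 0 of 7 in *T* + *WSD* against *C* (edgeR 10% of all tested genes, DESeq2 1894 genes), 5 had an unadjusted p under 0.05 (32.1% of all tested genes), and the median log2 fold change was -0.47. HSPE1 (-0.25), DNAJA1 (-0.56) and HSPA8 (-0.47) had edgeR adjusted p-values of 0.0315, 0.0407 and 0.0435 with fold changes of 1.19, 1.47 and 1.39, under the threshold of 1.5. edgeR also called 0 of 7 in the other 5 comparisons, in which 1 (*WSD* against *C*; 18.5% of all tested genes), 0 (*T* against *C*; 8.63%), 3 (*T* + *WSD* against *WSD*; 20%), 3 (*T* + *WSD* against *T*; 25.9%) and 1 (interaction; 13.5%) had an unadjusted p under 0.05. DESeq2 called 1, HSPD1 in *WSD* against *C*, beside 1.58% of the genes it tested there. edgeR gave HSPD1 a log2 fold change of 0.70 in that comparison (SE 0.20, edgeR adjusted p = 0.131). The estimates of all 7 were negative in *T* + *WSD* against *WSD*, with medians of -0.35 there and -0.35 against *T*.

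Markers of other cell types moved with *T* + *WSD*. Of the mesothelial list, 12 of 13 genes were measured, none at 0 in all animals, and MSLN made up the largest part of their summed CPM over the 24 animals (PKHD1L1 in *WSD* and *T* + *WSD*). Their summed level was 1301, 1649 and 5318 CPM in the lowest, median and highest *C* animal and 1045, 1335 and 2427 CPM in *T*. It was 388.6, 1272 and 1609 CPM for *WSD*, and 187.7, 499.9 and 759.6 CPM for *T* + *WSD*. All 6 *T* + *WSD* animals were below all controls, and 8 of 12 genes fell against *C* (5.29% of all tested genes) and 7 against *T* (1.43%). Since the sums of *C* and *T* + *WSD* did not overlap, a change in the early response genes and a change in mesothelial RNA cannot be told apart in this comparison, and the part of mesothelial cells in these results was not tested. The 12 mesothelial genes had a median r of 0.09 with the mean z-score of the members.

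Among the other lists in *T* + *WSD* against *C*, 5 of 8 endothelial, 2 of 8 smooth muscle and pericyte genes and 1 of 8 adipocyte genes (LEP) rose, beside 718 of all 15207 tested genes. Of the 7 neutrophil genes, 2 fell (S100A8 and S100A9), while 4 of the 7 estimates were positive and the median log2 fold change was 0.14, and 1 of 8 fibroblast and progenitor genes (DPP4) fell, beside 5.29% of all tested genes. A count of 1 of 8 is near these shares. edgeR and DESeq2 called 0 of 7 macrophage, 0 of 5 T and NK cell, 0 of 4 B and plasma cell and 0 of 2 erythroid genes, and 0 of these had an unadjusted p under 0.05. Over all 10 marker lists (69 tested genes), edgeR called 2 higher and 8 lower in *T* + *WSD* against *T*, beside 3.77% of all tested genes. DESeq2 called 12 in all, beside 6.1% of the genes it tested. edgeR called 0 of the 69 in *WSD* against *C* (14 at an unadjusted p under 0.05, beside 18.5% of all tested genes, DESeq2 0), in *T* against *C* (6, beside 8.63%, DESeq2 0), in *T* + *WSD* against *WSD* (13, beside 20%, DESeq2 6) and for the interaction (4, beside 13.5%, DESeq2 1). Pooled over lists, these unadjusted counts were near or below the background. The 6 DESeq2 calls stood beside 2.62% of the genes it tested, and the 1 for the interaction beside 3.02%. By list, 9 of 12 mesothelial genes had an unadjusted p under 0.05 in *T* + *WSD* against *WSD*. All 12 estimates were negative there (median -1.07), and DESeq2 called 4. In *WSD* against *C*, 6 of 12 mesothelial (10 negative, median -0.96) and 4 of 8 endothelial genes (median 0.445) had such a p. Summed endothelial levels, of which VWF made up the largest part, had a median of 1355 CPM for *C* and 2106 CPM for *T* + *WSD*, with *T* (1621 CPM) and *WSD* (1695 CPM) between them, and adipocyte sums had medians of 4045, 6978, 6295 and 5975 CPM in the same order. In *T* 16, *WSD* 20 and *WSD* 22, the animals with the highest members, the mesothelial sums were 1045, 671.3 and 1147 CPM, the adipocyte sums 7211, 8035 and 6711 CPM, and the neutrophil sums 28.8, 41.6 and 48.5 CPM. In *WSD* 21, with the lowest members, they were 388.6, 7636 and 28.1 CPM. Fibroblast and progenitor sums were 10790 (*T* 16), 8678 (*WSD* 20), 7981 (*WSD* 22) and 16100 CPM (*WSD* 21). The group medians of that sum were 13930 CPM for *T* and 15140 CPM for *WSD*. The part of cell composition in the members' levels was not tested.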

How the data were processed

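Omental WAT RNA, depleted of ribosomal RNA, was sequenced as single reads. The authors evaluated reads with FastQC 0.11.5, trimmed them with Trimmomatic 0.36, aligned them to rheMac8 with STAR 2.5.2b and deposited raw counts per gene. The counting tool and strand setting are not given in the sources used here, so overlapping or antisense genes may share reads. Groups came from the sample labels. Symbols came from a gene name table (17851 identifiers), and for SOCS3, KRT8 and 1 endothelial gene from the supplementary tables. Of the 60 pairs of libraries within groups, 0 were identical.

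Counts were normalized by TMM and tested in 1 fit to 4 groups with edgeR 4.0.16 (quasi-likelihood F-test, robust, legacy; filterByExpr with minimum count 10 and minimum total 15; R 4.3.3), with Benjamini-Hochberg adjustment over all 15207 genes. DESeq2 1.42.0 was an alternative. The test was checked on simulated data, but the outcome of that check is not reported here. Log2 CPM used a prior count of 2. The members and lists were chosen with earlier results of these data known. Named genes were the members, JUND, FOSL2, for each of the wider early response, upstream signalling and heat shock lists the 5 called genes with the largest change each way (or the 3 with the smallest unadjusted p), and the 10 genes most like the members; 1 gene that this rule names is not reported here. MYC levels, MRTFB levels and genes of marker lists were shown after their values were seen. The correlations were planned for the pairs of all 10 members, and 15 could be made.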

Additional observations from a re-analysis of the deposited data

Results flagged for a closer look

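In 4 of the 24 sets of 6 animals (6 members in 4 groups), 1 animal stood apart in CPM, in that the gap to its nearest neighbour, divided by the range of its group, exceeded the critical value of a Dixon test. Chance marks about 1 in 20 sets. *T* 16 was far above the other *T* animals for NR4A1 (ratio 0.812). In *T* + *WSD*, animal 8 was the highest for FOS (0.698), animal 7 for ATF3 (0.726) and animal 11 for NR4A1 (0.707), so the 3 were different animals. On the log2 CPM scale, 0 of the 24 sets had such an animal.

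Outside the members, *T* + *WSD* 11 was high for FOSL2 (0.728), 1 of 8 sets for JUND and FOSL2. *C* 1 had the highest mesothelial sum (0.748), 1 of 8 sets for the mesothelial and adipocyte sums. The part of any of these animals' tissue composition was not tested.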

How the results depend on the processing

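The lowest counts were 6 for EGR2 and 8 for FOSB, so the levels of these genes carry wide counting errors in the shallowest libraries. The animals were not a random sample of treated animals, and the raw reads were not used here. The number of members called was 0 in 200 alternatives and moved in 3. It was 1 (JUNB) for *T* + *WSD* against *C* with only those groups fitted, 1 for *T* + *WSD* against *WSD* with DESeq2, and 0 to 1 there with each animal left out. For the wider early response, upstream signalling and heat shock lists all alternatives were added after seeing the data. DESeq2 called 5 wider genes in *T* + *WSD* against *WSD*, 1 in the interaction, 1 upstream gene in *T* + *WSD* against *WSD* and 1 heat shock gene in *WSD* against *C*. Its shares of the genes tested were 2.62% (*T* + *WSD* against *WSD*), 3.02% (interaction) and 1.58% (*WSD* against *C*). In the 16 libraries outside the batch, and with the mesothelial mean as a covariate, 0 wider and 0 upstream genes were called in *T* + *WSD* against *C* and against *T*. The mesothelial sums of *T* + *WSD* did not overlap those of *C* or *T*, so that covariate cannot be told apart from the group; that fit called 0% of all tested genes in both comparisons, the fit to the 16 libraries 0.505% and 1.99%, and nothing is drawn from the former. In *T* + *WSD* against *T*, 1 wider gene was called with RLE normalization (3.6% of all genes tested) and 4 with only those groups fitted (7.27%), and 0 upstream genes without the low-count filter (1.56%), beside 3.77% in the reported fit. An adjusted p under 0.05 alone gave 5 upstream and 3 heat shock genes against *C*, and 2 upstream genes against *T*. With each animal left out, the wider list gave 4 to 8 genes (*T* + *WSD* against *C*), 0 to 7 (against *WSD*), 0 to 3 (against *T*) and 0 to 2 (interaction), the upstream list 0 to 1 against *WSD* (1 without *C* 1 or *WSD* 21) and 0 to 1 against *T*, and the heat shock list 0 to 1 against *C* (1 without *C* 4 or *C* 6).

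Of the log2 fold changes of members under alternatives, 1141 kept their sign and their side of the threshold, though some moved widely (NR4A1 in *T* against *C* was at 1.25, and at 0.26 without *T* 16), 38 had the opposite sign, all with an unadjusted edgeR p of 0.2385 or more, and 3 passed the threshold. With each animal left out, the range crossed 0 for FOS in *WSD* against *C* (-0.14 to 0.38) and *T* against *C* (-0.10 to 0.38), ATF3 in the same comparisons (-0.31 to 0.44 and -0.37 to 0.15), JUNB (-0.38 to 0.0903) and EGR2 (-0.0669 to 0.48) in *T* against *C*, and FOSB (-0.13 to 0.73) and NR4A1 (-0.49 to 0.18) in *T* + *WSD* against *C*. In the 16 libraries outside the library batch, FOSB was at -0.81 in *T* + *WSD* against *C*, ATF3 at -0.19 in *WSD* against *C*, and EGR2 and ATF3 at -0.29 and 0.28 in *T* against *C*, and the log2 fold change of JUNB, T against C, was 0.0846. The mesothelial covariate, with the same limit, gave -1.17 for FOSB and -0.76 for NR4A1 in *T* + *WSD* against *C*. For ATF3 the sign also changed, as the log2 fold change of ATF3, T against C, was 0.0122 without the filter and 0.0406 with the library batch as covariate. A fit with T 16 and WSD 22 both left out was added after their high member counts had been seen, so these animals were picked on the members' own values; the pick used raw counts and kept *WSD* 20, which has the highest mean z-score. It called 0 members in each comparison, 1 wider and 0 upstream genes in *T* + *WSD* against *T* (1.88% of all genes tested), and gave FOS -0.14 (*WSD* against *C*) and -0.10 (*T* against *C*), and the log2 fold change of EGR2, T against C, was -0.00399. The causes of these moves were not tested. The median percentile of the members' within-group SD was 88.6 and became 93.3 on variance-stabilized values. The number of correlated pairs was 10, and 6 without the 2 farthest animals.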
